A study of Mus musculus with 21 samples.

Results

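The comparison described here is the deletion of Rtel1 in Rtel1 F/F mouse embryonic fibroblasts (MEFs). It rests on 6 of the 21 poly(A) RNA-seq libraries of the series, which are 3 from cells infected with a Cre-expressing adenovirus (+Cre, Rtel1-deficient) and 3 from cells infected with a GFP-expressing adenovirus (+GFP, Rtel1-proficient). All 6 carried floxed Rtel1 alleles, received virus and were collected 96 h after infection. Cre is therefore present in one group only. A further 3 libraries came from +GFP cells of the Rtel1 F/F line that express the RTEL1 C1252A/C1255A mutant protein from a vector on top of their own floxed alleles, and these served as a second control. Terf1 F/F MEFs (labelled Trf1f/f), 3 libraries +Cre and 3 +GFP, are another floxed line that received the same viruses. There Cre deletes Terf1, so Cre and loss of Terf1 go together. The labels call the 3 libraries of a group biological replicates without naming separate embryos or cultures, so p-values measure only the spread between these libraries. Each line was given 1 genotype label, and the labels do not say how many embryos it came from.

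RTEL1 is a DNA helicase that unwinds telomeric loops, D-loops and G-quadruplex (G4) DNA, a four-stranded structure that guanine-rich sequence can fold into, and it binds the replication clamp PCNA. Embryonic fibroblasts are mesenchymal cells whose main products are collagens, proteoglycans and other matrix proteins. They also respond to virus and to damaged DNA through interferon-stimulated genes and through p53, respectively.

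The 6 libraries held between 37651982 and 47300825 counts and all 21 libraries between 32069888 and 51938593. In a principal component analysis of all libraries, the first component (71.9% of the variance) separated the Terf1 line from the Rtel1 line, and on the second (13.1%) the 3 Rtel1 F/F +GFP libraries had the lowest scores of all 21. Their second scores were -56.3, -74.9 and -71.8, while the +Cre libraries scored 2.06, 35.0 and 10.3 and the RTEL1 C1252A/C1255A +GFP libraries 8.93, 42.3 and 27.0. On this component the control of the comparison is the outlying group, so results are given also against the RTEL1 C1252A/C1255A +GFP cells. This is done where the direction changes for a gene that passed the test against either control. Of 232 named genes compared in this way, a further 97 kept the direction but did not pass the test against these cells. Within +GFP, replicate 1 lay nearest to +Cre for 72.8% of the genes that fell and 70.5% of those that rose. Guanine- and cytosine-rich (GC-rich) transcripts were unevenly represented among the +Cre libraries. For the 579 genes with a transcript GC content of at least 60%, the median level relative to the +GFP mean was -0.23, -1.28 and -0.48 (log2) in +Cre replicates 1, 2 and 3.

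Of 12 fibroblast markers, all were tested, 9 fell and 2 rose, and their summed level was between 8974 and 10055 TPM, the length-scaled abundance of a transcript as a share of its library, in +GFP and between 6653 and 7050 TPM in +Cre libraries. Vim, the intermediate filament protein vimentin, was at 1653 ± 98.5 TPM in +GFP and 1627 ± 118 TPM in +Cre cells (mean ± SD, n = 3) and did not pass the test. Of the 2 markers that rose, S100a4 was well expressed, at a mean of 1551 TPM in +GFP and 3199 TPM in +Cre cells. The other, the fibroblast surface marker Thy1, was close to 0 in both groups, although it passed the test as higher. Leukocyte markers summed to 2.83 to 3.15 TPM in +GFP and 3.29 to 4.63 TPM in +Cre libraries, with 11 of 12 under 1 TPM and 6 at 0 counts in all 6 libraries. Epithelial markers summed to 3.29 to 3.93 TPM and 7.10 to 10.1 TPM, with the keratins Krt18 and Krt19 highest on average in +GFP and +Cre libraries, respectively, endothelial markers to 10.9 to 16.8 TPM and 6.85 to 9.88 TPM, neural markers to 22.1 to 23.03 TPM and 10.2 to 17.0 TPM, and adipocyte markers to 6.44 to 10.7 TPM and 6.46 to 8.08 TPM. Skeletal muscle and erythroid markers did not exceed 0.50 TPM in sum. In bulk RNA, fewer cells of a type and less RNA per cell cannot be told apart. Relative to RTEL1 C1252A/C1255A +GFP cells, Krt19 and Thy1 had the opposite sign without passing the test. Leaving out 1 library ended the call for Thy1 (without +Cre replicates 1, 2 and 3 or +GFP replicates 1, 2 and 3, edgeR adjusted p up to 0.048).

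Rtel1 itself was at 66.2, 59.1 and 60.2 CPM, counts scaled to a common library size, in the +GFP and 29.9, 31.9 and 26.8 CPM in the +Cre libraries. The groups did not overlap, and the level fell by 1.07 on the log2 scale (SE 0.08, edgeR quasi-likelihood test, Benjamini-Hochberg adjusted p = 5.4e-09). The count covers the whole gene (chromosome 2, 181319711 to 181356616, GRCm38). Which exons are floxed is not given in the sources used here. In the RTEL1 C1252A/C1255A +GFP libraries Rtel1 was at 338, 328 and 331 CPM. Among the neighbours of Rtel1, Arfrp1, which lies next to it and encodes a GTPase, was higher (log2 fold change 0.49) and Gmeb2, on the other side, was lower (-0.21). Helz2 (-0.76) and Ppdpf (-0.51, but 0.10 after a correction for GC content) were also lower, while Zgpat, Zbtb46, Lime1 and Slc2a4rg-ps did not pass the test. With the second control, Arfrp1, Helz2 and Ppdpf had the opposite sign without passing the test. Calls that did not survive the removal of 1 library were those of Gmeb2 (without +Cre replicate 3 or +GFP replicates 2 and 3, edgeR adjusted p up to 0.0536) and Ppdpf (without +Cre replicate 2 or +GFP replicate 3, edgeR adjusted p up to 0.0235).

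Across the transcriptome, 13719 genes had enough counts to be tested and 5902 of them (43.0%) passed an adjusted p of at most 0.01. Reduced levels were found for 2887 (21%) and increased levels for 3015 (22%), and in what follows fell and rose mean that a gene passed this test in that direction. Large falls outnumbered large rises. A log2 change of -1 or lower was seen for 1173 genes against 520 rises of at least 1, and a log2 change of at least 2 for 412 falls against 144 rises. The median absolute log2 change of the called genes was 0.67, and the median over all tested genes was -0.03. For 32.1% of the tested genes all 3 +Cre libraries lay below all 3 +GFP libraries, and for 29.4% they lay above. Leaving out 1 library changed these totals. Without +Cre replicates 1, 2 and 3 in turn, 2926, 2417 and 2708 genes rose and 2708, 2583 and 2523 fell. Without +GFP replicates 1, 2 and 3 in turn, 2908, 2395 and 2441 rose and 2853, 2302 and 2420 fell. List counts given below without 1 library stand beside these totals. Where a list held 5 or fewer calls in a direction, those named were chosen after their values were seen. The bar plot of called shares by gene list shows how far each list departed from these background shares.

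**Figure D1:**
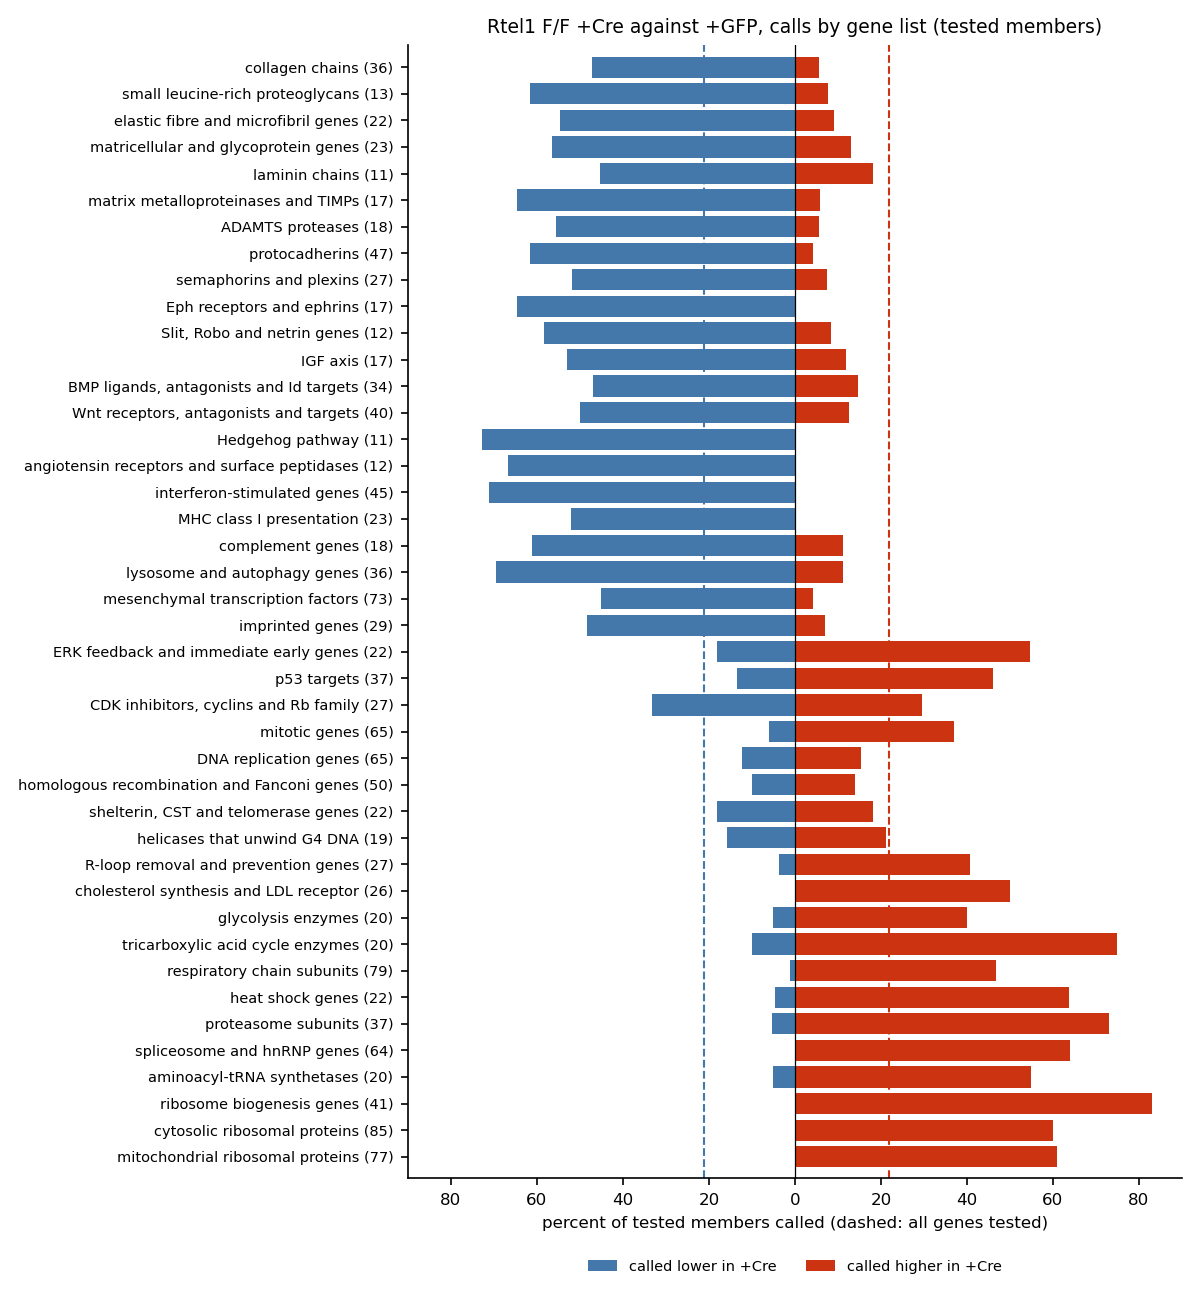
Share of the tested members of each of 42 gene lists that passed the edgeR test after Rtel1 deletion, as the percent lower (blue, to the left) and the percent higher (red, to the right) in +Cre than in +GFP cells. Dashed lines mark the shares over all 13719 tested genes, 21% lower and 22% higher. Matrix, guidance, interferon and lysosome lists extend to the left, and ribosome biogenesis, ribosomal protein, proteasome and spliceosome lists extend to the right.

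The largest falls, taken among genes that averaged 5 CPM or more and whose groups were separate, were of genes for secreted and surface proteins. Fmod, the matrix proteoglycan fibromodulin, was at 46.7, 97.6 and 88.0 CPM in +GFP and 0.419, 0.596 and 0.464 CPM in +Cre libraries, a log2 change of -7.29 ± 0.28 (± SE, as for all log2 fold changes given with ±). Hmcn1, the large basement membrane protein hemicentin, went from 12.4, 36.1 and 23.8 to 0.280, 0.596 and 0.437 CPM (-5.78 ± 0.38), and Ndnf, a secreted neurotrophic factor, from 79.4, 167 and 145 to 4.59, 5.19 and 5.73 CPM (-4.66 ± 0.22). In each of these 3 genes the highest +Cre library lay far below the lowest +GFP library. Serpina3g, a serine protease inhibitor of a family with near-identical copies whose reads could be split, changed by -5.29, Islr, a mesenchymal Ig-domain protein, by -5.34, Megf6 by -5.25, the tetraspanin Tspan11 by -4.35, the aminopeptidase Enpep by -6.62 and Agtr2, the type 2 angiotensin II receptor, by -6.86. In all 12 of the largest falls replicate 1 was the lowest +GFP library, as with Enpep at 10.0, 47.7 and 35.0 CPM. When RTEL1 C1252A/C1255A +GFP cells served as control, Enpep, Islr and Serpina3g had the opposite sign without passing the test.

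The largest rises, taken by the same rule, were more mixed in function. Tmem171 was at 1.45, 0.678 and 0.621 CPM in +GFP and 16.4, 19.5 and 19.95 CPM in +Cre libraries (4.35 ± 0.24). Ptpn22, a tyrosine phosphatase known from lymphocytes, was at 0.801, 0.761 and 0.601 and 10.0, 11.7 and 10.7 CPM (3.90 ± 0.18), and Ptgs2, the inducible cyclooxygenase that makes prostaglandins, at 116, 37.2 and 41.6 and 349, 549.8 and 462 CPM (2.80 ± 0.35). No +GFP library reached a +Cre library in any of the 3. Mfap3l (3.44), Rgs16 (2.85), which limits G-protein signalling, Siglecg (2.80), a sialic acid-binding lectin, Ankrd1 (2.75), Eda2r (2.65), a receptor of the tumour necrosis factor receptor family, mesothelin (Msln, 2.58), Ccbe1 (2.56), which promotes the processing of VEGF-C, and the predicted gene Gm12603 (3.66) followed. Among these 12, Tmem254b had the largest fitted rise (4.83 ± 1.44), but 2 of its +GFP libraries held 0 counts, it belongs to a cluster of near-identical genes, and its adjusted p was 0.0094 (edgeR), so the size of its change is not defined by these libraries. By comparison with RTEL1 C1252A/C1255A +GFP cells, Ankrd1, Mfap3l and Ptgs2 had the opposite sign without passing the test. Without 1 of the libraries the threshold was missed by Tmem254b (without +Cre replicates 1, 2 and 3 or +GFP replicates 1, 2 and 3, edgeR adjusted p up to 0.0514). The log2 fold change was 3.53 for Ptgs2 without +GFP replicate 1.

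**Figure D2:**
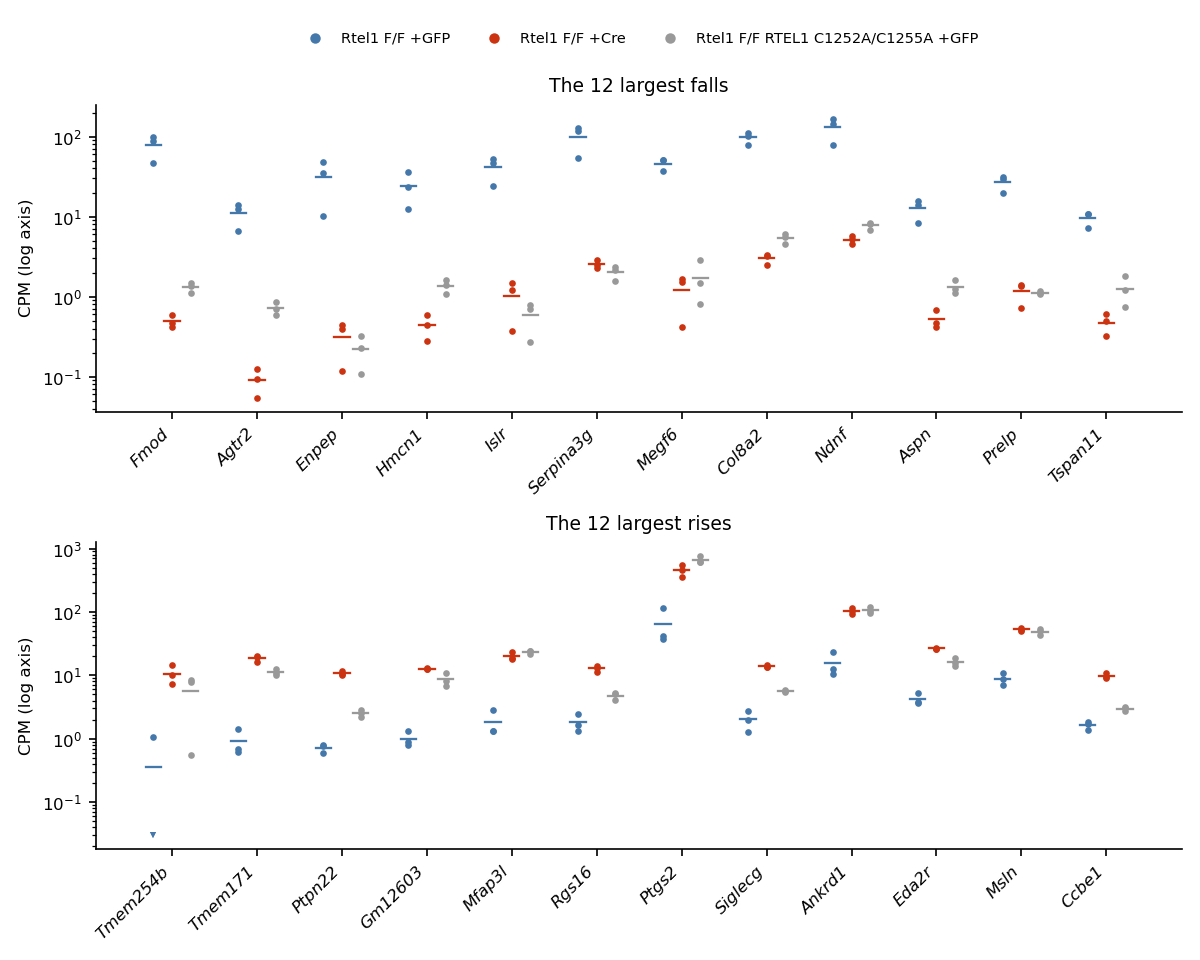
CPM on a log axis in each library for the 12 largest falls and the 12 largest rises after Rtel1 deletion, in Rtel1 F/F +GFP (blue), Rtel1 F/F +Cre (red) and RTEL1 C1252A/C1255A +GFP (grey) libraries, with a bar at each group mean (n = 3). Points are spread sideways only for legibility, and downward triangles at the lower edge mark the 2 Tmem254b +GFP libraries with 0 counts. For most genes the grey points lie nearer to the red than to the blue points.

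Extracellular matrix genes fell broadly. Of 36 collagen chains tested, 17 fell and 2 rose, with a median log2 fold change of -1.28 against -0.03 over all genes. Col3a1, a fibrillar collagen of skin and vessels, went from 1268, 1271 and 1222 to 269.8, 201 and 266 CPM (-2.35 ± 0.15), and Col2a1, the main cartilage collagen, from 76.8, 115 and 108 to 9.51, 3.45 and 9.23 CPM (-3.76 ± 0.41). Col1a2, the second chain of type I collagen, was at 5600.1, 5150.1 and 5121 and 2359, 1652 and 2383 CPM (-1.31 ± 0.19). Col1a1, the first chain, was at 4975, 4642 and 4654 and 1899, 644 and 1353 CPM, and here +Cre replicate 2, in which GC-rich transcripts were under-represented, was the lowest. None of these 4 chains overlapped between groups. Col7a1 (1.26), the anchoring fibril collagen, and Col8a1 (0.40) were the 2 chains that rose. After a correction of each library for GC content, added after seeing the data, 18 collagens fell and 6 rose, with a median of -0.84. With that correction 2898 of all 13719 tested genes fell and 3897 rose. In the other comparison, with RTEL1 C1252A/C1255A +GFP cells, Col2a1 and Col8a1 had the opposite sign without passing the test. The call was likewise lost, with 1 library left out, for Col1a1 (without +Cre replicates 2 and 3 or +GFP replicates 2 and 3, edgeR adjusted p up to 0.0251) and Col7a1 (without +Cre replicate 1 or +GFP replicate 3, edgeR adjusted p up to 0.0241).

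13 small leucine-rich proteoglycans, which bind collagen fibrils and control their assembly, were tested. Of these, 8 fell and 1 rose (median -1.52). Beside Fmod, Aspn (asporin, -4.59), Prelp (-4.54) and Ogn (osteoglycin, -3.19) fell strongly, and Bgn (biglycan) went from 2016.1, 2113 and 2084 to 1285, 1439.9 and 1331 CPM (-0.62 ± 0.06). Decorin (Dcn, 1.47) was the only one to rise. Among 22 elastic fibre genes, 12 fell and 2 rose (median -1.04). Fibrillin-2 (Fbn2) was at 175, 249.8 and 203 CPM in +GFP and 14.6, 9.70 and 11.4 CPM in +Cre libraries (-4.14 ± 0.26). Fibulin-5 (Fbln5) changed by -1.69 and lysyl oxidase (Lox), which crosslinks collagen and elastin, by -0.93, whereas Efemp1 (0.52) and Loxl2 (1.14) rose. Of 23 matricellular genes, 13 fell and 3 rose (median -0.81). Matrix Gla protein (Mgp), an inhibitor of calcification, was at 255, 530.1 and 493 and 39.0, 31.5 and 39.4 CPM (-3.54 ± 0.21), and fibronectin (Fn1) at 7398, 7007 and 6372 and 3616, 3181 and 3439.6 CPM (-1.02 ± 0.12). Osteopontin (Spp1, 1.00), tenascin X (Tnxb, 1.97) and versican (Vcan, 0.79) rose. The laminins were split by chain, since Lama4 (-2.85), Lama1 (0.0890, 0.267 and 0.0601 CPM in +GFP, 0 counts in +Cre), Lama2 (-1.98), Lamb2 (-1.96) and Lamc1 (-0.50) fell and the rises included Lamc3 (0.0223, 0.0206 and 0 and 0.769, 0.596 and 0.546 CPM) among 11 tested. Set against the second control instead, the log2 difference was called in the opposite direction for Efemp1 (-1.48), while Bgn, Lama4, Loxl2, Prelp and Spp1 had the opposite sign without passing the test. Leaving out 1 library ended the call for Efemp1 (without +GFP replicate 2, edgeR adjusted p up to 0.0122).

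Promoter windows of both matrix and other genes are shown where motifs occurred in them. Windows run from 250 bases before to 50 after the start of the gene (RefSeq sequence, GRCm38.p6), a G4 motif is 4 runs of at least 3 G with loops of 1 to 7 bases on either strand, and it was present in 18.6% of all 32851 windows. The 18.6% counts windows, while the list shares count genes with a match in any of their windows, so they are unlike measures. The motif was found for 13 of the 29 collagen genes with a window (44.8%). Lists that moved otherwise held it as well, such as 12 of 20 glycolysis enzymes (60%) and 9 of 17 FGF ligands and receptors (52.9%). Capitals mark the motif matches, with runs of C where the match is on the other strand. Col8a2, a basement membrane collagen, was among the 12 largest falls (79.6, 112 and 101 CPM in +GFP, 3.36, 2.48 and 3.25 CPM in +Cre, -5.01 ± 0.21) and holds 2 matches, 1 per strand, and Prelp holds 1 on the strand opposite to transcription. A match describes letters only and is not evidence of a folded structure.
Col8a2 (chr4:126286544-126286843, plus strand): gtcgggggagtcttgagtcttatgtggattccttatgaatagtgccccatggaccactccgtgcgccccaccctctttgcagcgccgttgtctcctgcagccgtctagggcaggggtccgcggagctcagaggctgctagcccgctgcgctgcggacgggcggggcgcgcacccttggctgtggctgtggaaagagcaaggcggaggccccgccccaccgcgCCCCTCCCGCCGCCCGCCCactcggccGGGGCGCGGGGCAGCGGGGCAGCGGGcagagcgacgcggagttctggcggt
Prelp (chr1:133921352-133921651, minus strand): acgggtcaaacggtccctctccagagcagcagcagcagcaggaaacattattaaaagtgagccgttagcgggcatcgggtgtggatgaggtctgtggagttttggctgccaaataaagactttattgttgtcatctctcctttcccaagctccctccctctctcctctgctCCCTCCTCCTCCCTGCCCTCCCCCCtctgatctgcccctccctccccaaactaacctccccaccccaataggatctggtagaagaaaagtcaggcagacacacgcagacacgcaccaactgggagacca

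Proteases that remodel the matrix followed the same direction. Of 17 matrix metalloproteinases and their tissue inhibitors, 11 fell and 1, stromelysin-2 (Mmp10, 0, 0.0206 and 0 CPM in +GFP and 0.163, 0.149 and 0.109 CPM in +Cre), rose. Gelatinase B (Mmp9) was at 106, 153 and 145 CPM in +GFP and 28.2, 19.5 and 30.5 CPM in +Cre libraries (-2.38 ± 0.21), with no overlap, and the inhibitor Timp3 changed by -1.37. Of 18 ADAMTS proteases and ADAMTS-like genes, 10 fell, among them Adamts20 (-2.95) and the procollagen peptidase Adamts2 (-1.62), and 1, Adamts6 (1.03), rose. Surface peptidases and angiotensin receptors showed a median of -1.72, with 8 of 12 falling and 0 (1 at an unadjusted edgeR p under 0.05, 0 by DESeq2) rising. Neprilysin (Mme), which degrades peptide hormones, went from 85.1, 132 and 110.2 to 5.80, 5.19 and 5.21 CPM (-4.34 ± 0.16). Relative to RTEL1 C1252A/C1255A +GFP cells, the log2 difference was called in the opposite direction for Mmp9 (2.03), while Adamts20 had the opposite sign without passing the test.

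Cell adhesion and guidance genes were reduced in most families, with exceptions by member. 20 integrin chains gave 8 falls and 4 rises. The collagen receptors Itga1 (22.3, 34.8 and 27.8 CPM in +GFP, 2.33, 2.73 and 2.81 CPM in +Cre, -3.43 ± 0.15) and Itga11 (-2.5) fell, Itgb1, the partner of most alpha chains, did not pass the test (0.03 ± 0.08), and Itgb7 (2.70), Itga6 (1.51), Itgb2 (1.17) and Itgav (0.47) rose. Cadherins moved in both directions. N-cadherin (Cdh2) rose from 63.0, 45.4 and 45.2 to 192, 195 and 178 CPM (1.88 ± 0.10), while osteoblast cadherin (Cdh11, -1.19), Cdh13 (-2.29), P-cadherin (Cdh3, -1.89), Cdh17 (-0.60) and E-cadherin (Cdh1, -3.50) fell and Cdh5 (0.0223, 0.0206 and 0 and 0.233, 0.273 and 0.164 CPM), an endothelial cadherin, rose. Protocadherins, surface proteins encoded largely in clusters of similar genes, gave 29 falls and 2 rises among 47 (median -1.14). Pcdhb22 was at 10.996, 15.3 and 14.4 CPM in +GFP and 3.36, 2.78 and 3.44 CPM in +Cre libraries (-2.09 ± 0.14), and reads of neighbouring cluster members could be split between copies. Pcdh1 (2.93) and Pcdhgc5 (0.31) rose. With the second control, the log2 difference was called in the opposite direction for Cdh11 (1.00), while Itga1 and Pcdhb22 had the opposite sign without passing the test. Calls that did not survive the removal of 1 library were those of Cdh17 (without +Cre replicate 3 or +GFP replicate 2, edgeR adjusted p up to 0.0289), Cdh5 (without +GFP replicate 3, edgeR adjusted p up to 0.0133) and Pcdhgc5 (without +Cre replicates 1, 2 and 3 or +GFP replicates 1 and 3, edgeR adjusted p up to 0.0305). The log2 fold change was -4.13 for Cdh1 without +Cre replicate 2.

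Of 17 Eph receptors and ephrins, which signal between touching cells, 11 fell and 0 (0 at an unadjusted edgeR p under 0.05, 0 by DESeq2) rose (median -0.92). Epha4 went from 34.5, 34.5 and 30.3 to 10.9, 11.2 and 9.69 CPM (-1.64 ± 0.09). Semaphorins and plexins gave 14 falls and 2 rises among 27 (median -0.71), and the rises were of Sema3e (0.81) and Sema7a (1.34). In the Slit, Robo and netrin list 7 of 12 fell, with the netrin receptor Unc5c at 23.3, 27.9 and 23.4 and 5.66, 4.34 and 4.42 CPM (-2.37 ± 0.14) and Robo2 at -1.92, while Robo3 (0.0445, 0.0206 and 0.0200 and 0.583, 0.124 and 0.464 CPM) rose.

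Growth factor axes were described from ligand to target. In the insulin-like growth factor (IGF) axis, 9 of 17 genes fell and 2, Igfbp7 (0.80) and Stc1 (2.15), rose. The ligand Igf1 went from 62.7, 94.7 and 80.7 to 6.13, 8.81 and 6.91 CPM (-3.45 ± 0.15) and Igf2 from 5.12, 10.6 and 9.90 to 0.746, 0.670 and 1.01 CPM (-3.40 ± 0.26). Igf1r, their receptor, was at 110.1, 99.9 and 92.8 and 69.1, 57.1 and 52.8 CPM (-0.76 ± 0.12). The binding protein Igfbp2 changed by -4.07 and Pappa2, a protease that cuts IGF-binding proteins, by -3.66. Among 34 genes of the bone morphogenetic protein (BMP) list, 16 fell and 5 rose. The target Id3 went from 58.3, 134 and 123 to 17.5, 6.33 and 16.5 CPM (-2.97 ± 0.41) and the ligand Bmp4 changed by -3.46. The rises included the antagonists gremlin (Grem1, 2.47) and noggin (Nog, 1.16), Bmper (0.70) and the inhibitory SMAD gene Smad7 (0.38). When RTEL1 C1252A/C1255A +GFP cells served as control, the log2 difference was called in the opposite direction for Bmper (-1.02), Grem1 (-0.69), Igf2 (1.58), Igfbp2 (3.87) and Nog (-1.72), while Id3, Igf1, Pappa2 and Stc1 had the opposite sign without passing the test. Without 1 of the libraries the threshold was missed by Nog (without +Cre replicates 1 and 3 or +GFP replicates 2 and 3, edgeR adjusted p up to 0.0406), Smad7 (without +Cre replicate 1, edgeR adjusted p up to 0.0115) and Stc1 (without +Cre replicates 2 and 3 or +GFP replicates 1, 2 and 3, edgeR adjusted p up to 0.0497). The BMP genes that rose numbered 3 without +Cre replicate 1.

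Wnt receptors, antagonists and targets gave 20 falls and 5 rises among 40 (median -0.47). The receptor Fzd1 was at 74.4, 144 and 129.5 CPM in +GFP and 6.20, 5.73 and 6.99 CPM in +Cre libraries (-4.20 ± 0.19), Wisp2, a secreted target, changed by -3.96 and the ligand Wnt6 by -3.37. Ccnd1 (cyclin D1, 1.35), Myc (0.81), Sfrp1 (0.82), Lgr6 (1.38) and Dkk2 (3.45) of the same list rose. In the Hedgehog pathway 8 of 11 genes fell and 0 (0 at an unadjusted edgeR p under 0.05, 0 by DESeq2) rose (median -0.82). The co-receptor Gas1 was at 174, 161 and 167 and 36.9, 38.0 and 38.4 CPM (-2.15 ± 0.08), and the transcription factor Gli2 changed by -1.95. Transforming growth factor beta genes did not move as a block, with 9 falls and 6 rises among 21. All 3 ligands Tgfb1 (-1.3), Tgfb2 (-1.15) and Tgfb3 (-1.35) and the receptor Tgfbr2 (-0.83) fell, whereas the target Ctgf (1.26) rose. Ligands and receptors of receptor tyrosine kinases were called in both directions, at shares not far from the 22% higher and 21% lower of all genes. There were 5 rises and 5 falls among 16 PDGF and VEGF genes (31.25% each, median 0.07). The 21 FGF genes gave 5 rises and 6 falls (23.8% and 28.6%, median 0.04). The receptor Pdgfrb went from 269, 320.4 and 295 to 101, 75.9 and 93.5 CPM (-1.71 ± 0.12). Downstream, 12 of 22 ERK feedback and immediate early genes rose and 4 fell. The phosphatase Dusp5 (1.83) and Fosl1 (1.58) were higher, and Fos (-1.80), Egr1 (-0.58), Egr2 (-1.55) and Etv1 (-0.55) were lower. By comparison with RTEL1 C1252A/C1255A +GFP cells, the log2 difference was called in the opposite direction for Dkk2 (-2.08), while Ctgf, Etv1, Myc, Tgfb1 and Wnt6 had the opposite sign without passing the test. The call was likewise lost, with 1 library left out, for Egr1 (without +Cre replicates 1 and 2 or +GFP replicates 2 and 3, edgeR adjusted p up to 0.0334), Etv1 (without +Cre replicates 1 and 3 or +GFP replicate 1, edgeR adjusted p up to 0.0379) and Sfrp1 (without +Cre replicates 1, 2 and 3 or +GFP replicates 2 and 3, edgeR adjusted p up to 0.051).

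Interferon-stimulated genes, which cells switch on after sensing viral or misplaced nucleic acid, were reduced. Of 45 tested, 32 fell and 0 (0 at an unadjusted edgeR p under 0.05, 0 by DESeq2) rose (median -1.08). Usp18, a negative regulator of interferon signalling, was at 3.16, 3.56 and 3.69 CPM in +GFP and 0.583, 0.347 and 0.464 CPM in +Cre libraries (-2.89 ± 0.17). Irf7, a transcription factor that amplifies the response, was at 4.34, 5.88 and 6.29 and 1.17, 0.993 and 0.710 CPM (-2.51 ± 0.25), and Gbp2, a guanylate-binding protein, at 28.9, 42.2 and 41.1 and 8.30, 11.6 and 9.20 CPM (-1.95 ± 0.17). The groups were separate for all 3. Ifit1 (-0.81) fell less, and Ifit2 did not pass the test (-0.33 ± 0.14). The major histocompatibility complex (MHC) class I list gave 12 falls and 0 (2 at an unadjusted edgeR p under 0.05, 1 by DESeq2) rises among 23, with Psmb8, a subunit of the immunoproteasome, at 4.65, 8.28 and 9.07 and 0.792, 0.571 and 0.682 CPM (-3.42 ± 0.26), the peptide transporter Tap2 at -2.78 and the class I regulator Nlrc5 at -2.36. Of 18 complement genes, 11 fell and 2 rose (median -1.65). C3 was at 48.1, 156 and 129.6 CPM in +GFP and 13.2, 11.8 and 13.4 CPM in +Cre libraries (-3.12 ± 0.29), and C3ar1, the receptor of a C3 fragment (0 counts in +GFP, 0.489, 0.546 and 0.3003 CPM in +Cre), and Masp2 (1.03) rose. In the other comparison, with RTEL1 C1252A/C1255A +GFP cells, the log2 difference was called in the opposite direction for C3 (2.23), Gbp2 (0.86) and Ifit1 (0.79), while Irf7, Psmb8 and Tap2 had the opposite sign without passing the test. Leaving out 1 library ended the call for Masp2 (without +Cre replicates 1, 2 and 3 or +GFP replicates 1, 2 and 3, edgeR adjusted p up to 0.0319).

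The same genes behaved otherwise in 2 other comparisons. Against RTEL1 C1252A/C1255A +GFP cells, a comparison that shares the +Cre libraries with the one above, 13 of the 45 interferon-stimulated genes were higher in Rtel1 F/F +Cre cells and 0 lower (median 0.49). Over all genes 3.80% were higher and 3.95% lower. Gbp2 (4.95, 4.88 and 6.12 CPM in the second control) was higher by 0.86 ± 0.18. In the Terf1 line, 43 rose after Cre (median 1.27), where the background is 2.65% higher and 0.765% lower. A test of the difference between the Cre effects in both lines called 44 of 45 as lower in the Rtel1 line, beside 14.5% of all genes. For MHC class I genes the Terf1 line gave 15 rises (median 0.96), and 19 of 23 differed as lower in the Rtel1 line. Among genes of the cytosolic nucleic acid sensing pathway, Ddx58 (RIG-I) was at 55.6, 58.0 and 55.1 CPM in +GFP, 32.7, 38.1 and 33.2 CPM in +Cre and 23.3, 25.1 and 24.3 CPM in RTEL1 C1252A/C1255A +GFP libraries, so that +Cre lay between both controls without overlap. Mb21d1 (cGAS, 0.30) and Mavs (0.32) were the only 2 of 22 to rise against Rtel1 F/F +GFP cells, where 7 fell. The interferon-stimulated response element GAAANNGAAA is present, on either strand, in 3.44% of all promoter windows. The window of Gbp2 holds 1 match, on the strand opposite to transcription, in capitals. Set against the second control instead, the log2 difference was called in the opposite direction for Ddx58 (0.52). Calls that did not survive the removal of 1 library were those of Mb21d1 (without +Cre replicates 2 and 3 or +GFP replicates 1, 2 and 3, edgeR adjusted p up to 0.0672). The nucleic acid sensor genes that fell numbered 4 without +Cre replicate 2, 4 without +Cre replicate 3, 3 without +GFP replicate 2 and 4 without +GFP replicate 3.
Gbp2 (chr3:142620413-142620712, plus strand): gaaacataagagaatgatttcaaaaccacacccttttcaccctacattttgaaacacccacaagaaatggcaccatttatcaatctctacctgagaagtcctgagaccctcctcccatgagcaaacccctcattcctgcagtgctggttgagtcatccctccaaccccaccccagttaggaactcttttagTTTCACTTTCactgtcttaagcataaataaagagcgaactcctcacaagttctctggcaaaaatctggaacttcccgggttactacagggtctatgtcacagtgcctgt

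**Figure D3:**
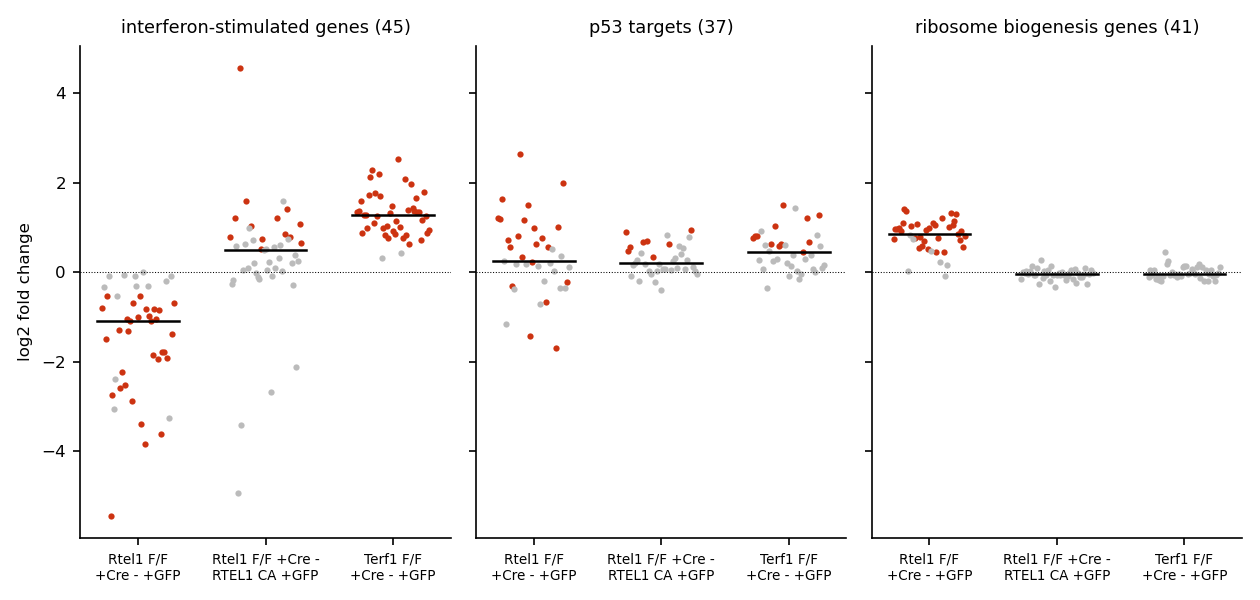
Log2 fold change (vertical axis) of every tested member of 3 lists in 3 comparisons, Rtel1 F/F +Cre against +GFP, Rtel1 F/F +Cre against RTEL1 C1252A/C1255A +GFP (RTEL1 CA) and Terf1 F/F +Cre against +GFP, with red points for genes that passed the edgeR test, grey points for those that did not and a black line at the list median. Points are spread sideways for legibility. The median of the 45 interferon-stimulated genes is -1.08, 0.49 and 1.27 in the 3 comparisons, and 17, 8 and 12 of the 37 p53 targets were higher.

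Targets of p53, the transcription factor that answers DNA damage, rose in part. Of 37 tested, 17 rose and 5 fell (median 0.25). Cdkn1a, which encodes the cyclin-dependent kinase inhibitor p21, was at 51.0, 49.1 and 53.2 CPM in +GFP, 123, 113 and 121 CPM in +Cre and 63.3, 64.9 and 64.0 CPM in RTEL1 C1252A/C1255A +GFP libraries. Ccng1 (cyclin G1) was at 93.0, 84.1 and 82.1, 278, 277 and 256 and 175, 202 and 171 CPM, and Eda2r at 5.32, 3.76 and 3.61, 26.1, 25.9 and 27.4 and 14.2, 18.5 and 15.9 CPM in the same order. In all 3 genes the +Cre libraries exceeded both kinds of +GFP library. Their log2 fold changes were 1.22 ± 0.06, 1.64 ± 0.08 and 2.65 ± 0.13 against Rtel1 F/F +GFP and 0.89 ± 0.06, 0.56 ± 0.08 and 0.71 ± 0.12 against RTEL1 C1252A/C1255A +GFP cells. The latter control gave 8 higher members of the list, where 3.80% of all genes were called higher. After Cre in the Terf1 line 12 of the list rose. The 5 members that fell after Rtel1 deletion were Trp53i11 (-1.70), Fas (-1.43), Ddb2 (-0.67), Sesn1 (-0.31) and Apaf1 (-0.23). Relative to RTEL1 C1252A/C1255A +GFP cells, Apaf1, Ddb2, Fas and Trp53i11 had the opposite sign without passing the test. Without 1 of the libraries the threshold was missed by Apaf1 (without +Cre replicates 1 and 3 or +GFP replicates 1, 2 and 3, edgeR adjusted p up to 0.0963), Ddb2 (without +Cre replicate 3 or +GFP replicates 2 and 3, edgeR adjusted p up to 0.0186) and Sesn1 (without +Cre replicates 1 and 3 or +GFP replicates 2 and 3, edgeR adjusted p up to 0.0939). The p53 genes that fell numbered 2 without +Cre replicate 3, 2 without +GFP replicate 2 and 2 without +GFP replicate 3.

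Cell cycle genes moved in both directions. Cyclin-dependent kinase inhibitors, cyclins and Rb family genes gave 8 rises and 9 falls among 27. Cyclin D1 was at 239.7, 135 and 151 CPM in +GFP and 461, 413 and 468 CPM in +Cre libraries (1.35 ± 0.15), cyclin E1 (Ccne1) at 10.8, 8.90 and 9.80 and 25.9, 27.3 and 25.3 CPM (1.41 ± 0.08), and the inhibitor p27 (Cdkn1b) at 64.9, 87.3 and 82.9 and 37.1, 30.1 and 32.8 CPM (-1.23 ± 0.12). None of the 3 overlapped between groups. Cdkn2a, the Ink4a/Arf locus, was at 398, 419 and 456 and 259, 112 and 263 CPM and did not pass the test (-1.01 ± 0.34), with +Cre replicate 2 lowest. Of 65 mitotic genes, 24 rose and 4 fell (median 0.22), including cyclin B1 (Ccnb1, 0.64) and Aurora A (Aurka, 0.64), while Top2a was at 904, 841 and 801 and 808, 942 and 822 CPM (0.01 ± 0.07). The falls were of the proliferation marker Mki67 (-0.59), the condensin genes Ncapd2 (-0.40) and Smc4 (-0.28) and Spc24 (-0.50). A fit of the 6 libraries alone left 13 mitotic genes higher, where 2221 of all 12744 genes tested were higher. The call was likewise lost, with 1 library left out, for Smc4 (without +Cre replicates 1 and 3 or +GFP replicates 1, 2 and 3, edgeR adjusted p up to 0.0601). The mitotic genes that rose numbered 13 without +Cre replicate 2 and 15 without +GFP replicate 3. Over all genes, 2417 of 13857 and 2441 of 13826 rose in these fits. The cyclin and inhibitor genes that fell numbered 5 without +GFP replicate 2 and 5 without +GFP replicate 3.

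Genes of the processes in which RTEL1 acts were called in both directions, but mostly less often than genes at large. Over all tested genes 22% rose and 21% fell. The shares were 15.4% and 12.3% for replication genes and 14% and 10% for recombination and Fanconi genes. They were 18.2% and 18.2% for the shelterin, CST and telomerase list and 21.1% and 15.8% for the helicase list, whose falls include the deleted Rtel1. Of the lists in this paragraph, only the R-loop genes exceeded the background, and only for rises (40.7%). 65 DNA replication genes gave 10 rises and 8 falls (median 0.01), and the ribonucleotide reductase subunit Rrm2 had the largest rise (87.4, 65.9 and 70.4 CPM in +GFP, 148, 191 and 172 CPM in +Cre, 1.19 ± 0.13). 50 homologous recombination and Fanconi genes gave 7 rises and 5 falls (median -0.01), with Fancb at 0.64 and, as the falls, Slx1b at -0.55, Mdc1 at -0.45, Fancg at -0.44, Rnf168 at -0.40 and Brip1 at -0.33. Among 19 tested members of a hand-made list of helicases put together for G4 DNA, Rtel1 had the largest change, but it is the gene that was deleted. Whether each member unwinds G4 DNA was not checked. Helb (-0.54) and Brip1 (-0.33) were also lower, and Hells (0.48), Ercc3 (0.47), Dhx9 (0.39) and Ddx11 (0.34) were higher. After the GC correction, under which 6795 of 13719 genes were called (3897 higher and 2898 lower), 7 of the helicases were higher and 6 lower, and 19 of the replication genes were higher and 9 lower. In the shelterin, CST and telomerase list, 4 of 22 genes rose, and they were the 4 H/ACA ribonucleoprotein genes, whose products serve both telomerase and ribosomal RNA modification. Dyskerin (Dkc1) was at 136, 92.2 and 95.7 CPM in +GFP and 221, 240.3 and 210.4 CPM in +Cre libraries (1.05 ± 0.11), with Nhp2 at 1.06, Nop10 at 0.82 and Gar1 at 0.72. The falls were of the shelterin subunit Acd (-0.69), the CST subunit Ctc1 (-0.30), Smg6 (-0.29) and tankyrase (Tnks, -0.29). R-loop removal and prevention genes, whose products resolve or prevent RNA-DNA hybrids, gave 11 rises and 1 fall among 27 (median 0.18), the rises including Top1 (topoisomerase I, 0.82) and Thoc1 (0.96), and Adar (-0.55) being the fall. With the second control, Ctc1, Dhx9, Dkc1, Fancb, Fancg, Gar1, Mdc1, Nop10, Slx1b, Thoc1 and Top1 had the opposite sign without passing the test. Leaving out 1 library ended the call for Brip1 (without +Cre replicate 3 or +GFP replicate 2, edgeR adjusted p up to 0.0317), Dhx9 (without +Cre replicate 2 or +GFP replicate 3, edgeR adjusted p up to 0.0193), Fancg (without +Cre replicates 1 and 2 or +GFP replicates 2 and 3, edgeR adjusted p up to 0.0492), Hells (without +Cre replicate 2 or +GFP replicates 2 and 3, edgeR adjusted p up to 0.0272), Smg6 (without +GFP replicate 2, edgeR adjusted p up to 0.0123) and Tnks (without +Cre replicates 1 and 3 or +GFP replicates 1 and 2, edgeR adjusted p up to 0.0571). The replication genes that fell numbered 5 without +GFP replicate 2 and 5 without +GFP replicate 3. The recombination genes that rose numbered 3 without +Cre replicate 2, 4 without +Cre replicate 3, 4 without +GFP replicate 2 and 3 without +GFP replicate 3. The recombination genes that fell numbered 3 without +GFP replicate 2. The R-loop genes that rose numbered 7 without +Cre replicate 2 and 7 without +GFP replicate 3.

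The most uniform rise was in ribosome production. Of 41 ribosome biogenesis genes, 34 rose and 0 (0 at an unadjusted edgeR p under 0.05, 0 by DESeq2) fell (median 0.86). Nucleolin (Ncl) was at 1104, 772 and 800.0 CPM in +GFP and 2107, 2693 and 2361 CPM in +Cre libraries (1.42 ± 0.12), nucleophosmin (Npm1) at 942, 739.6 and 786 and 1871, 2348 and 2144 CPM (1.37 ± 0.12), and Wdr43, a factor of small subunit assembly, at 162, 117 and 122 and 311, 348 and 325 CPM (1.3 ± 0.09). Every +Cre library exceeded every +GFP library for these 3 genes, and replicate 1 was the highest +GFP library. 85 cytosolic ribosomal protein genes gave 51 rises and 0 (0 at an unadjusted edgeR p under 0.05, 0 by DESeq2) falls (median 0.50), though reads from their many processed pseudogenes could be split. Rps27a was at 394, 356 and 409 and 974, 1013 and 949 CPM (1.34 ± 0.13), while Rplp0 was at 2937, 2933 and 3345 and 3676, 1900.0 and 3547 CPM and did not pass the test. Mitochondrial ribosomal proteins gave 47 rises and 0 (1 at an unadjusted edgeR p under 0.05, 0 by DESeq2) falls among 77 (median 0.43), spliceosome and hnRNP genes 41 and 0 (2 at an unadjusted edgeR p under 0.05, 1 by DESeq2) among 64 (median 0.42), and aminoacyl-tRNA synthetases 11 rises and 1 fall, Sars (-0.26), among 20. The E-box CACGTG, the site that MYC and related factors bind, is present in 7.15% of promoter windows, and the window of Wdr43 holds 1. When RTEL1 C1252A/C1255A +GFP cells served as control, Npm1, Rps27a and Wdr43 had the opposite sign without passing the test. That control gave 0 higher and 0 lower genes among the 41 ribosome biogenesis, 85 cytosolic and 77 mitochondrial ribosomal protein genes. Among 64 spliceosome and hnRNP genes 0 were higher and 3 lower, and among 20 synthetases 1 and 0. Over all genes the shares were 3.80% and 3.95%. Calls that did not survive the removal of 1 library were those of Sars (without +Cre replicates 1 and 2 or +GFP replicates 1 and 3, edgeR adjusted p up to 0.0338).
Wdr43 (chr17:71615965-71616264, plus strand): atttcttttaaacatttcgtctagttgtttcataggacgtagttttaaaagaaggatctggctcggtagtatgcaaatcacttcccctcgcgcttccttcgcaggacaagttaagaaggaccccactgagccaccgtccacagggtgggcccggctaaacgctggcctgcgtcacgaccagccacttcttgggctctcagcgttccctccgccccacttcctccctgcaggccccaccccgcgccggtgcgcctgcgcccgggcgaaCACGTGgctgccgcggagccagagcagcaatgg

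Protein folding and turnover genes divided by compartment. Heat shock genes gave 14 rises and 1 fall, Hspb1 (-1.29), among 22 (median 0.61). The mitochondrial chaperonin Hspd1 went from 586, 368 and 397 to 1123, 1590.4 and 1335 CPM (1.58 ± 0.17) and its partner Hspe1 from 206, 160.4 and 189 to 504, 416 and 415 CPM (1.26 ± 0.10). Endoplasmic reticulum chaperones stayed near the background, with 5 rises and 4 falls among 24, from Derl3 (-2.49) to Serp1 (0.47). Of 37 proteasome subunits, 27 rose and 2 fell (median 0.51). The 2 that fell, Psmb8 and Psmb9 (-2.80), are the interferon-inducible subunits, while the constitutive Psmd14 was at 122, 112 and 119 and 235, 215 and 218 CPM (0.92 ± 0.07). Lysosome and autophagy genes went the other way, with 25 of 36 falling and 4 rising (median -0.53), which were Becn1 (0.43), Ctsl (0.42), Atg5 (0.37) and Atp6v1h (0.30). Prosaposin (Psap) was at 1575, 2002 and 1984 CPM in +GFP and 1041, 859.7 and 1085 CPM in +Cre libraries (-0.90 ± 0.11), and acid lipase (Lipa) changed by -1.14. The heat shock element GAANNTTCNNGAA is present in 0.603% of promoter windows. Hspd1 and Hspe1 are transcribed away from each other from a shared promoter, and the window of Hspd1 holds 2 overlapping matches, 1 per strand. By comparison with RTEL1 C1252A/C1255A +GFP cells, Becn1, Psap and Psmb9 had the opposite sign without passing the test. Without 1 of the libraries the threshold was missed by Atp6v1h and Ctsl (without +Cre replicates 2 and 3 or +GFP replicates 1, 2 and 3, edgeR adjusted p up to 0.117 and 0.0539). The chaperone genes that rose numbered 2 without +Cre replicate 2, 3 without +Cre replicate 3, 2 without +GFP replicate 2 and 2 without +GFP replicate 3.
Hspd1 (chr1:55087883-55088182, minus strand): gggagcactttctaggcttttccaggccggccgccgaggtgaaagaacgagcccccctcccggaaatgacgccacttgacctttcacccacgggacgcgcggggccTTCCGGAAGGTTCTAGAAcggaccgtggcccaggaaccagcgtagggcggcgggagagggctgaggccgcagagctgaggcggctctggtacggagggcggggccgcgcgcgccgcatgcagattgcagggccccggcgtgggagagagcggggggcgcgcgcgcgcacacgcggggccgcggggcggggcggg

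Energy metabolism genes rose modestly. Of 20 tricarboxylic acid cycle enzymes, 15 rose and 2 fell (median 0.48), with Idh3a at 1.02 and pyruvate carboxylase (Pcx, -0.89) and Idh2 (-0.31) as the falls. Of 79 respiratory chain subunits, 37 rose and 1 fell (median 0.34), the fall being of Ndufv3 (-0.42), and cytochrome c (Cycs) was at 130.2, 106 and 112 and 288, 351 and 313 CPM (1.45 ± 0.13). Glycolysis enzymes gave 8 rises among 20, with Pgk1 at 0.89 and Gapdh at 0.67, and 1 fall, the neuronal enolase Eno2 (-1.26). Cholesterol synthesis genes gave 13 rises and 0 (1 at an unadjusted edgeR p under 0.05, 0 by DESeq2) falls among 26, with Idi1 at 365, 297 and 313 and 611, 718 and 658 CPM (1.03 ± 0.14), but in a fit of the 6 libraries alone 7 rose (2221 of 12744 over all genes). Genes of the ATF4 stress response gave 12 falls and 2 rises among 27 (Trib3 -1.11, Atf5 -0.98, Psat1 0.38, Mthfd2 0.24). After correction for GC content these became 7 and 4, beside 2898 and 3897 over all 13719 genes. In the other comparison, with RTEL1 C1252A/C1255A +GFP cells, Gapdh and Psat1 had the opposite sign without passing the test. The call was likewise lost, with 1 library left out, for Mthfd2 (without +Cre replicates 2 and 3 or +GFP replicates 2 and 3, edgeR adjusted p up to 0.0838), Ndufv3 (without +Cre replicate 2 or +GFP replicate 3, edgeR adjusted p up to 0.016) and Psat1 (without +Cre replicate 2 or +GFP replicates 2 and 3, edgeR adjusted p up to 0.0346).

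Regulators of mesenchymal identity were reduced more often than raised. Of 73 mesenchymal transcription factors, 33 fell and 3 rose (median -0.41). Foxp1 was at 175, 206 and 188 CPM in +GFP and 98.7, 91.4 and 87.7 CPM in +Cre libraries (-1.04 ± 0.08), Prrx1, a limb mesenchyme factor, at 189, 225 and 204 and 128, 146 and 133 CPM (-0.61 ± 0.09), and the tendon factor Scx at 28.4, 26.6 and 30.5 and 16.7, 8.56 and 13.6 CPM (-1.14 ± 0.28). Tbx20 (1.00), Sox11 (0.51) and Msx2 (0.36) rose. Hox genes, which record body position, gave 12 falls and 4 rises among 36 (median -0.27), the rises including Hoxc13 (0.78), Hoxa4 (0.44) and Hoxc5 (0.37). Of 25 surface markers of fibroblasts, 14 fell and 3 rose (median -0.82), with Alcam at -2.22 and endoglin (Eng) at -2.08, and the hyaluronan receptor Cd44 (1.12) and Ly6a (1.13, Sca-1) among the rises. Zinc finger genes named Zfp gave 74 falls and 27 rises among 336, beside 2887 and 3015 over all 13719 genes. Their share of falls was thus close to that of all genes, and only their share of rises was lower. After correction for GC content they gave 118 falls and 31 rises (2898 and 3897 over all 13719 genes). Clustered histone genes, most of whose transcripts lack a poly(A) tail, gave 4 rises and 0 (0 at an unadjusted edgeR p under 0.05, 0 by DESeq2) falls among 33, with Hist1h1a at 1.53, Hist1h1b at 1.18 and Hist1h2bb at 1.37, and Hist1h2bc was at 50.7, 41.5 and 47.8 and 164, 118 and 139 CPM (1.59 ± 0.15). The histone list had a median of 1.21, -0.71 and 0.59 (log2, relative to the +GFP mean) in +Cre replicates 1, 2 and 3, and the genes that rose numbered 1 without +Cre replicate 1, 7 without +Cre replicate 2, 2 without +GFP replicate 1 and 1 without +GFP replicate 3. Set against the second control instead, the log2 difference was called in the opposite direction for Tbx20 (-0.66), while Hist1h2bb, Hoxc5, Ly6a, Msx2 and Prrx1 had the opposite sign without passing the test. Leaving out 1 library ended the call for Hist1h1a (without +Cre replicate 1 or +GFP replicates 1 and 3, edgeR adjusted p up to 0.0316), Hist1h1b (without +Cre replicate 1 or +GFP replicate 3, edgeR adjusted p up to 0.0126), Hist1h2bb (without +Cre replicates 1 and 3 or +GFP replicates 1, 2 and 3, edgeR adjusted p up to 0.0303), Hoxa4 (without +Cre replicates 1 and 2 or +GFP replicates 1 and 2, edgeR adjusted p up to 0.0568), Hoxc5 (without +Cre replicates 2 and 3 or +GFP replicates 1, 2 and 3, edgeR adjusted p up to 0.053), Msx2 (without +Cre replicate 2 or +GFP replicate 2, edgeR adjusted p up to 0.0217) and Scx (without +Cre replicate 2, edgeR adjusted p up to 0.01). The surface marker genes that fell numbered 9 without +GFP replicate 2.

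Imprinted genes, expressed from 1 parental allele in at least some tissues, gave 14 falls and 2 rises among 29 (median -0.69), the rises being of Dcn and Peg12 (1.03). Whether each was imprinted in these cells was not tested. Grb10, an adaptor that restrains insulin and IGF receptors, was at 551, 581 and 559.6 CPM in +GFP, 267, 247 and 229 CPM in +Cre and 497, 483 and 460.5 CPM in RTEL1 C1252A/C1255A +GFP libraries. Mest was at 9.50, 18.1 and 15.7, 1.65, 2.01 and 1.64 and 6.16, 5.02 and 5.46 CPM, and H19, a noncoding RNA, at 4.41, 8.45 and 7.87, 1.77, 1.76 and 1.72 and 3.57, 2.77 and 3.84 CPM in the same order. The +Cre libraries were the lowest of the 9 for all 3 genes. Against RTEL1 C1252A/C1255A +GFP cells the log2 differences were -0.96 ± 0.08, -1.65 ± 0.20 and -0.96 ± 0.20, and 12 of 29 imprinted genes were lower and 2 higher (median -0.55), beside 3.95% and 3.80% of all genes. The 2 that were higher there were Igf2 and Dcn.

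The choice of control changed the size of the response. Against RTEL1 C1252A/C1255A +GFP cells, 1064 genes (7.76%) differed from Rtel1 F/F +Cre cells, 522 higher (3.80%) and 542 lower (3.95%). Between both kinds of +GFP cells, neither of which received Cre, 6138 genes (44.7%) differed. These comparisons share libraries with the main one, so their values are only set side by side. The list medians for +Cre minus +GFP, for RTEL1 C1252A/C1255A +GFP minus +GFP, and for +Cre minus RTEL1 C1252A/C1255A +GFP were -1.28, -1.23 and 0.09 for collagens, -1.52, -1.38 and -0.28 for small leucine-rich proteoglycans, 0.86, 0.95 and -0.03 for ribosome biogenesis and 0.50, 0.56 and -0.05 for cytosolic ribosomal proteins. For mesenchymal transcription factors they were -0.41, -0.23 and -0.21, and for imprinted genes -0.69, -0.15 and -0.55. By the edgeR test against it, 17 of 73 mesenchymal transcription factors were lower and 3 higher. The counts lower and higher were 9 and 3 of 40 for Wnt genes, 8 and 4 of 25 for surface markers and 7 and 3 of 34 for BMP genes. For collagens they were 5 and 2 of 36, and for heat shock genes 2 and 0 of 22. Among 37 proteasome subunits, 79 respiratory chain subunits and 20 tricarboxylic acid cycle enzymes, 0 were lower and 0 higher.

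Single genes, chosen after their values were seen, differed in their level in the second control. Neprilysin was at 17.2, 18.0 and 19.1 CPM in RTEL1 C1252A/C1255A +GFP cells, between the 85.1, 132 and 110.2 CPM of +GFP and the 5.80, 5.19 and 5.21 CPM of +Cre libraries, and Col14a1, a fibril-associated collagen, was at 0.926, 0.543 and 0.868 CPM there, 0.534, 1.67 and 1.302 CPM in +GFP and 0.0699, 0.0496 and 0.0546 CPM in +Cre libraries. Both were lower in +Cre cells by either control (-1.74 ± 0.15 and -3.69 ± 0.48 against the second). Vegfc, a lymphatic growth factor, was at 5.10, 5.43 and 4.84 CPM there, 3.90, 3.17 and 3.02 CPM in +GFP and 15.4, 16.7 and 14.8 CPM in +Cre libraries and so was higher by either (2.22 ± 0.12 and 1.61 ± 0.12). Lama2, at 10.2, 9.90 and 9.23 CPM there and 2.78, 2.57 and 2.28 CPM in +GFP libraries, was lowest in +Cre cells. Mmp9, at 7.41, 4.48 and 7.13 CPM, Cdh11, at 100.1, 111 and 105 CPM, C3, at 2.498, 2.88 and 2.83 CPM, and Pdgfra, at 48.4, 48.0 and 46.1 CPM there against 122, 166 and 148 CPM in +GFP and 82.7, 84.2 and 79.8 CPM in +Cre libraries, were lower than +GFP but higher than RTEL1 C1252A/C1255A +GFP cells after deletion.

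**Figure D4:**
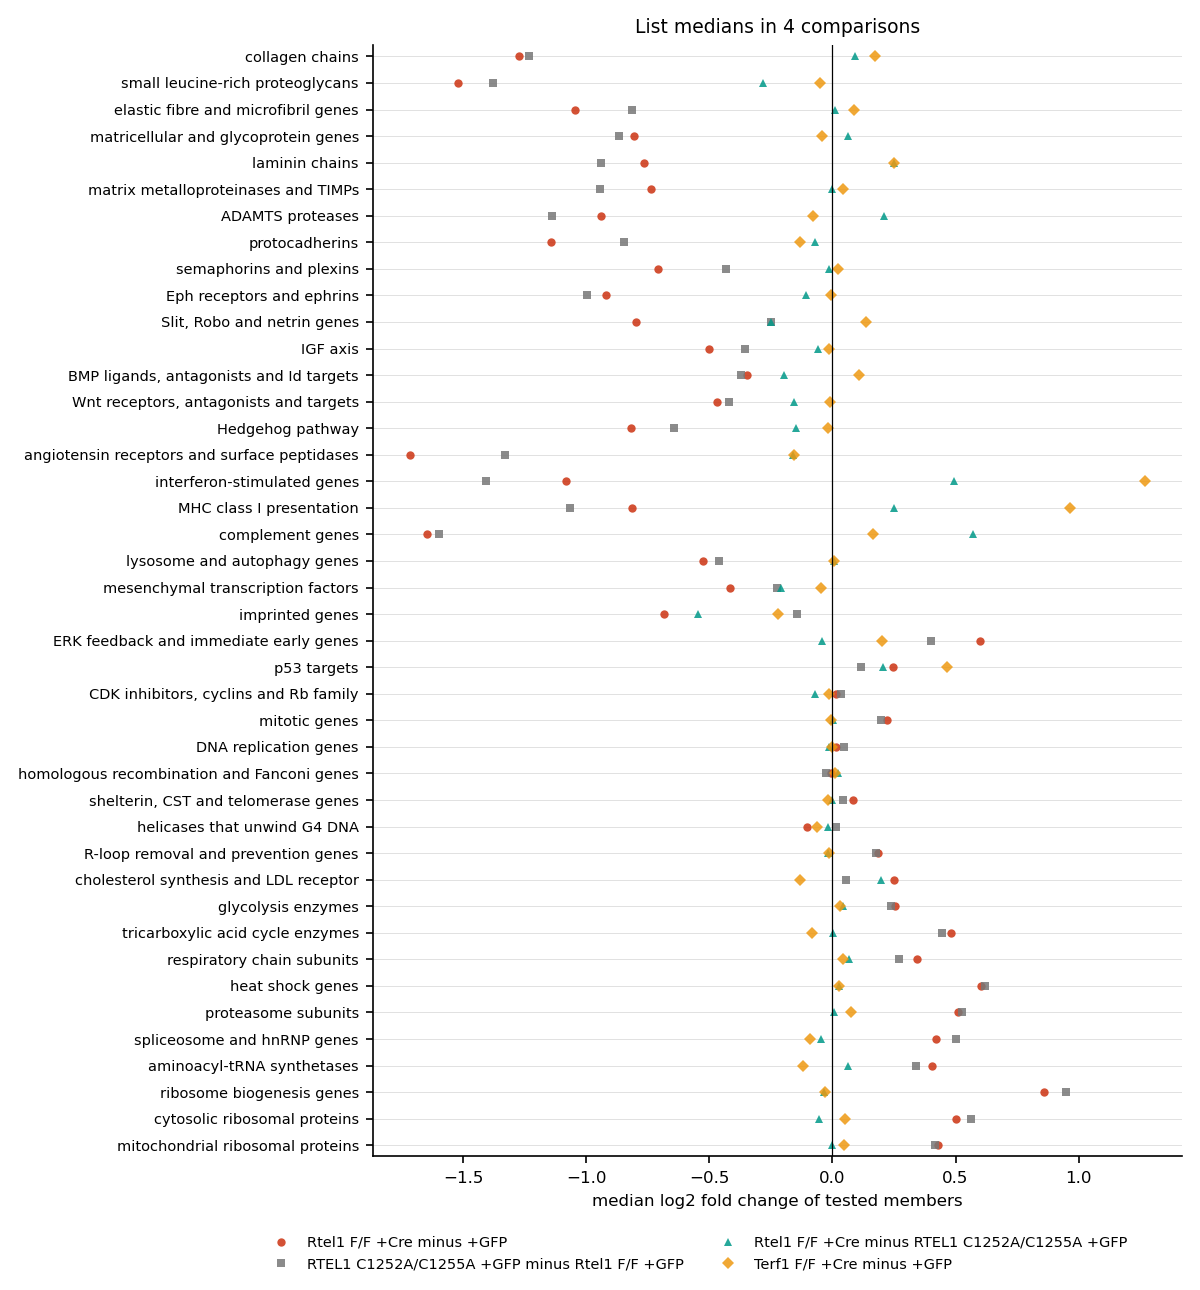
Median log2 difference of the tested members of 42 gene lists in 4 comparisons, Rtel1 F/F +Cre minus +GFP (red circles), RTEL1 C1252A/C1255A +GFP minus Rtel1 F/F +GFP (grey squares), Rtel1 F/F +Cre minus RTEL1 C1252A/C1255A +GFP (teal triangles) and Terf1 F/F +Cre minus +GFP (orange diamonds). The first 3 share libraries with each other. For collagens the red and grey medians are -1.28 and -1.23, and for interferon-stimulated genes the orange median is 1.27.

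The response of the Rtel1 line to Cre differed from that of the Terf1 line for 4147 genes (30.2%), 15.8% of all genes being higher and 14.5% lower in the Rtel1 line, tested as a difference between both effects with no library shared. Cre called 469 genes (3.42%) in the Terf1 line, 364 higher (2.65%) and 105 lower (0.765%). For collagens the Terf1 median was 0.17, and 14 of 36 were lower in the Rtel1 line by the test of the difference. The corresponding values were -0.03 and 30 of 41 higher for ribosome biogenesis, and -0.13 and 21 of 47 lower for protocadherins. Among 37 p53 targets 11 were higher and 6 lower in the Rtel1 line, with Cdkn1a at 0.77 and Ccng1 at 0.81 after Cre in the Terf1 line.

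Properties of the genes themselves moved with the direction of change. By the GC content of the longest transcript, 35.0% of 789 genes under 40% rose and 10.8% fell (median 0.22), and 2.59% of 579 genes of at least 60% rose and 21.9% fell (median -0.59). Highly expressed genes (mean over the 6 libraries of 100 CPM or more) rose in 38.6% and fell in 13.5% of 2497 cases, and genes between 1 and 5 CPM rose in 14.6% and fell in 33.4% of 1479. By span on the genome, 24.9% of 4487 genes between 10 and 30 kb rose and 18.7% fell, 14.2% of 1455 genes between 100 and 300 kb rose and 32.8% fell, and 8.84% of 362 genes of at least 300 kb rose and 44.5% fell (median -0.43). Against RTEL1 C1252A/C1255A +GFP cells, 80 of these 362 longest genes were lower and 17 higher (median -0.23), beside 3.95% and 3.80% of all genes, whereas 7 of the 579 most GC-rich genes were lower and 6 higher (median 0.10). Chromosome 18 had the largest share of rises (36.2% of 370 genes) and chromosome 7 the smallest (11.9% of 1008, median -0.22). The part of library composition in these shares was not tested.

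**Figure D5:**
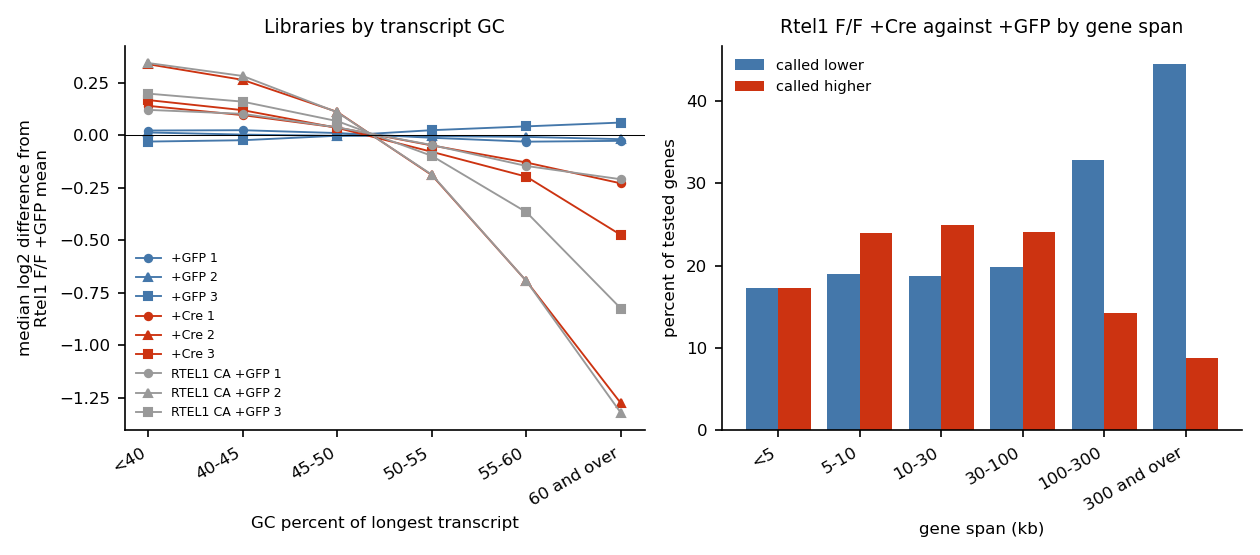
Left, median log2 difference of each of 9 libraries from the Rtel1 F/F +GFP mean, for genes binned by the GC content (%) of their longest transcript, in +GFP (blue), +Cre (red) and RTEL1 C1252A/C1255A +GFP (grey) libraries, 1 line per library. Right, percent of tested genes called lower (blue) and higher (red) after Rtel1 deletion by gene span (kb). The 3 +Cre lines drop to -0.23, -1.28 and -0.48 in the bin of at least 60% GC, and the share of falls reaches 44.5% at 300 kb and over.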

How the data were processed

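Poly(A) RNA of 21 libraries was sequenced as strand-specific single reads. The authors deposited RSEM expected counts and TPM values per gene, made with cutadapt 1.9.1, STAR 2.5.2a and RSEM 1.3.0 on mm10 (DESeq2 1.28.0 is also named in the submitters' processing notes). The deposited expected counts were already whole numbers. They were analysed with edgeR 4.0.16 and limma 3.58.1 in R 4.3.3 (TMM scaling, filterByExpr, robust quasi-likelihood fit of all 21 libraries by group, 14 residual degrees of freedom before moderation), with Benjamini-Hochberg adjustment over 13719 of 24454 genes and a threshold of 0.01. CPM are per TMM-scaled library size, and the deposited TPM values served only for marker levels. The script was tested on simulated data. Alternatives were DESeq2 1.42.0, other scaling and filters, left-out libraries, the 6 libraries alone, a replicate block, another control and, added later, a loess correction (span 0.3) for transcript GC content. GC content, gene span and positions came from the GRCm38 annotation, matched by symbol for 23360 genes and by synonym for 974. Promoter windows were found for 10836 tested genes (79.0%), too few to compare called with uncalled genes. Tables and figures used Python 3.11.15, pandas 2.3.3, numpy 2.4.6 and matplotlib 3.10.9.

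Genes were named from Rtel1, the 12 largest rises and 12 largest falls whose groups did not overlap and whose mean was 5 CPM or more, for each of 73 lists up to 4 members with the largest change at 1 CPM or more and up to 2 with the highest CPM (413 genes in all), and markers of 8 cell types, as far as their lists are described. Others were chosen after their values were seen. Most list members are given as counts, and a few genes that the rule named are not reported here. Members and lists were chosen with earlier results of these data known. TMPyP4-treated and RTEL1 C1252A/C1255A +Cre libraries entered the fit and are not described.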

Additional observations from a re-analysis of the deposited data

Results flagged for a closer look

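The effect of Cre was compared between the Rtel1 F/F and Terf1 F/F lines by a test of the difference itself (edgeR quasi-likelihood test, adjusted p of at most 0.01), and 4147 of 13719 genes differed, with 2161 higher and 1986 lower in the Rtel1 line. All 24 of the largest changes after Rtel1 deletion differed between the lines, but they were chosen for their change in the Rtel1 line, which largely fixes that outcome. As the log2 effect in the Rtel1 line minus that in the Terf1 line, the differences of the genes that fell were -7.47 for Fmod, -6.60 for Agtr2, -6.32 for Enpep, -5.88 for Islr, -5.69 for Hmcn1, -5.45 for Megf6, -4.92 for Prelp, -4.86 for Col8a2, -4.76 for Serpina3g, -4.55 for Ndnf, -4.38 for Aspn and -3.92 for Tspan11. Those of the genes that rose were 7.19 for Tmem254b, 3.96 for Mfap3l, 3.74 for Tmem171, 2.92 for Ccbe1, 2.85 for Siglecg, 2.81 for Ankrd1, 2.76 for Ptpn22, 2.74 for Gm12603, 2.72 for Msln, 2.5 for Ptgs2, 2.44 for Rgs16 and 1.62 for Eda2r. Cre expression and loss of the floxed gene cannot be told apart within either line, and the part of the outlying Rtel1 F/F +GFP libraries in these differences was not tested.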

How the results depend on the processing

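The main count of 5902 called genes (3015 higher, 2887 lower) was between 5399 and 7218 with DESeq2 (6145), DESeq2 size factors in edgeR, no filter, a minimum of 10 counts, the GC correction (6795) or the replicate number as a block (7218), was 4386 in a fit of the 6 libraries, and lay between 4697 and 5761 when 1 library was left out. Between Rtel1 F/F +Cre and +GFP, the replicate numbers did not pair the samples (r of same-numbered deviations -0.017, 0.058 and 0.131 over 11840 genes). In the Terf1 line these r were 0.552, 0.358 and -0.0998. With the block 5584 genes differed between the lines. For genes of at least 60% GC, replicates 1, 2 and 3 were at -0.23, -1.28 and -0.48 in +Cre and -0.21, -1.32 and -0.83 in RTEL1 C1252A/C1255A +GFP libraries. Both groups thus had the same order by replicate number. Pairing between them was not tested, and their comparison was fitted without the block. With the 6 libraries alone and this replicate block, which leaves fewer residual degrees of freedom, 2696 genes were called (1318 higher, 1378 lower). A log2 fold change of at least 1 left 1693 (520 higher, 1173 lower), and for the difference between lines 1569 (424 higher, 1145 lower). The GC correction with the replicate block called 3584 genes as higher in the Rtel1 line. With RTEL1 C1252A/C1255A +GFP cells as control, 1064 genes were called (522 higher, 542 lower), and the cause was not tested.

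Of 232 named genes followed through the alternatives, which leave out Rtel1 and S100a4, 97 kept the direction only against that control. A further 59 stayed on the same side of the threshold. The sign changed for 76, counting only genes that passed the test in at least 1 of the comparisons. Changes of sign between values that passed neither test, as for Cdkn2a, were not counted and fall within the 59. The log2 differences that passed the test with the opposite sign were Bmper -1.02, C3 2.23, Cdh11 1.00, Ddx58 0.52, Dkk2 -2.08, Efemp1 -1.48, Gbp2 0.86, Grem1 -0.69, Ifit1 0.79, Igf2 1.58, Igfbp2 3.87, Mmp9 2.03, Nog -1.72, Pdgfra 0.79 and Tbx20 -0.66. The others, which did not pass, were above 0 for Adamts20 0.34, Apaf1 0.036, Bgn 0.13, Col2a1 0.63, Ctc1 0.16, Ddb2 0.26, Enpep 0.53, Etv1 0.14, Fancg 0.18, Fas 0.032, Helz2 0.38, Id3 0.32, Igf1 0.12, Irf7 0.71, Islr 0.76, Itga1 0.23, Lama4 0.30, Mdc1 0.064, Pappa2 0.12, Pcdhb22 0.51, Ppdpf 0.22, Prelp 0.047, Prrx1 0.17, Psap 0.18, Psmb8 0.074, Psmb9 0.93, Serpina3g 0.34, Slx1b 0.00057, Tap2 0.036, Tgfb1 0.24, Trp53i11 0.55 and Wnt6 0.14, and below 0 for Ankrd1 -0.0074, Arfrp1 -0.15, Becn1 -0.019, Col8a1 -0.058, Ctgf -0.20, Dhx9 -0.017, Dkc1 -0.0038, Fancb -0.12, Gapdh -0.025, Gar1 -0.086, Hist1h2bb -0.062, Hoxc5 -0.0016, Krt19 -0.15, Loxl2 -0.35, Ly6a -0.44, Mfap3l -0.22, Msx2 -0.19, Myc -0.010, Nop10 -0.039, Npm1 -0.069, Psat1 -0.016, Ptgs2 -0.55, Rps27a -0.11, Spp1 -0.18, Stc1 -1.50, Thoc1 -0.039, Thy1 -0.11, Top1 -0.0099 and Wdr43 -0.035. Ppdpf was at 0.10 after the GC correction and 0.10 with the replicate block added. Depth limits genes of few counts, such as C3ar1, Lama1, Mmp10 and Tmem254b, most.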
